A study of Mus musculus with 24 samples.

Results

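The genes described here are the 50 chemokine and secretory cytokine genes of the mouse: every gene whose symbol is Ccl or Cxcl followed by its number, plus Cx3cl1, Il6, Il1a, Il1b, Il11, Il33, Lif, Csf1, Csf2, Csf3, Tnf, Tslp and Tnfsf11. They were taken by name from the 41710 genes listed for mouse embryo fibroblasts (MEFs), which are connective tissue cells cultured from embryos. The naming rule used no measured value, but the set was chosen with earlier results of these data known. The study excised Myc, Mlx or both genes (double knockout, DKO) and sequenced poly-A RNA from primary MEFs and from MEFs immortalized with SV40 T-antigen, in 8 groups of 3 libraries. Myc and Mlx are partners in 2 arms of a network of transcription factors that bind overlapping DNA sites, and the knockouts were set beside wild-type (WT) cells to see what each arm contributes. All lines came from embryos of day 14 to 16 with floxed alleles of Myc, Mlx or both and 2 copies of a Cre-estrogen receptor transgene driven by the ubiquitous ROSA26 promoter. The WT cells had intact loci, and the MycKO, MlxKO and DKO cells had been treated with 500 nM 4-hydroxytamoxifen, which activates Cre, for at least 7 days when primary and for 10 days when immortalized. WT cells were not given the drug (the protocol names an ethanol vehicle), so exposure to it, active Cre and loss of the genes cannot be told apart. Primary cells were sampled on day 10. The immortalized lines received T-antigen by lentivirus and were selected with blasticidin as transduced populations before excision. Cells of several embryos were pooled for each line, so the line and the genotype cannot be told apart. The study calls the replicates of primary MEFs biological. No source used here says whether they were separate cultures, or what those of immortalized MEFs were, and all libraries of a group come from its pooled line, so the p-values measure the spread between libraries of a line.

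Chemokines are small secreted proteins that direct the migration of leukocytes by binding G protein-coupled receptors, and they are named for the spacing of their first cysteines (CC, CXC and CX3C). Cytokines such as IL-6, LIF, CSF1 and TNF signal through receptors of other classes and control the growth, survival and activation of immune and stromal cells. Fibroblasts secrete many of both kinds, several of them under control of NF-kappa-B, and secretion of such factors is a known trait of senescent fibroblasts.

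Each library held between 15986856 and 20966163 reads on genes in primary MEFs and between 17541112 and 19851300 in immortalized MEFs, so that 3 reads corresponded to 0.145 to 0.196 CPM, the reads of a gene scaled to the size of its library. Myc averaged 93.9 CPM in primary WT libraries, 26.5 in MycKO and 21.5 in DKO, and Mlx averaged 23.7 CPM in WT, 13.5 in MlxKO and 11.2 in DKO, so each target gene was lower where its locus had been excised. In immortalized MEFs Myc averaged 88.5 ± 77.2 CPM in WT (177 in library 4), 12.7 in MycKO and 6.01 in DKO, and Mlx 23.0 in WT, 13.8 in MlxKO and 16.8 in DKO. All 8 fibroblast markers examined, Col1a1 and Pdgfra among them, reached 1 CPM in every group. The 12 macrophage markers, in contrast, summed to 325 to 619 CPM in primary WT, 343 to 422 in MlxKO, 55.8 to 82.7 in MycKO and 114 to 260 in DKO. In immortalized MEFs they summed to 1.64 to 6.13 CPM, with Adgre1, C1qa and Tyrobp at 0 in all 12 libraries. In bulk RNA, fewer cells of a type and less RNA per cell cannot be told apart. Library 4 of immortalized WT stood apart: it correlated with libraries 2 and 3 of its group at r = 0.950 and 0.943, against 0.992 between those 2, and 1313 and 1530 genes differed by 2-fold or more from them, against 53. Results of immortalized MEFs are therefore given with and without it.

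Of the 50 genes, 31 passed the filter of 1 CPM in at least 3 of 12 libraries in primary MEFs and 22 did so in immortalized MEFs, with 20 in both. In primary MEFs 8 genes had no read at all and 11 others had reads but did not pass, the highest being Cxcl3 at 2.54 CPM in 1 library. In immortalized MEFs 9 genes had no read and 19 others did not pass, the highest value being 1.26 CPM for Il33. The 5 genes without a read in either table were Ccl26, Ccl27b and the Ccl21 genes named Ccl21a, Ccl21b and Ccl21d, and several of these belong to near-identical copies between which reads may be split. Expressed per kilobase of exon, the most abundant in primary WT were Ccl7, which attracts monocytes, with 124 ± 9.9 CPM per kb (SD, n = 3), Csf1, the growth factor of macrophages, at 91.1 ± 5.5, and Ccl2, the main attractant of monocytes, at 55.7 ± 10. In primary MycKO and DKO the order began with Csf1, at 164 ± 8.5 and 160 ± 2.7 CPM per kb, and in MycKO Ccl7, at 158 ± 20, did not differ from it beyond the spread. In immortalized MlxKO the first place was taken by Cxcl10, an attractant of activated T cells, at 75.4 ± 14 CPM per kb.

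The sequences before the transcription start were read for the genes with an entry among RefSeq promoters (build GRCm38.p6, 250 bases before to 50 after the start), which 37 of the 50 genes had. The E-box CACGTG, to which Myc and Mlx bind with their partners, occurred in 1 of 45 promoters of these genes (Cxcl3, at position -155), or 2.22%, against 7.15% of all 32851 promoters. The kappa-B consensus was found on either strand in 9 of the 45 (Ccl20, Ccl27a, Ccl9, Csf1, Cxcl1, Cxcl10, Cxcl2, Cxcl3 and Il6), or 20.0%, against 4.51% of all promoters. Such matches describe letters and not binding. The 200 bases before the start, 5′ to 3′ on the gene's strand with each kappa-B match in capitals, are given for 4 genes with a match and for Cxcl15, which had the largest fall of all these genes and no match. They lie at chr5:92348890-92349089 on the minus strand for Cxcl10 (matches at -159 and -103), chr3:107760470-107760669 on the minus strand for Csf1 (-154), chr5:30012914-30013113 on the plus strand for Il6 (-44), chr5:90891045-90891244 on the plus strand for Cxcl1 (overlapping matches at -71 and -70) and chr5:90794334-90794533 on the plus strand for Cxcl15.
Cxcl10: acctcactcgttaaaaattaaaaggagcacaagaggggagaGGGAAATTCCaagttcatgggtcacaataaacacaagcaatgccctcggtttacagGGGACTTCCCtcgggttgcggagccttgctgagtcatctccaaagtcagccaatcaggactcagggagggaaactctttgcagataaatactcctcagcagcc
Csf1: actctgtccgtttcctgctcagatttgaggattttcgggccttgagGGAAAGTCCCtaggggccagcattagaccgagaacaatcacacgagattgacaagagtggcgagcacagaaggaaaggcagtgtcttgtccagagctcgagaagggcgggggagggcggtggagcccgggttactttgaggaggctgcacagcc
Il6: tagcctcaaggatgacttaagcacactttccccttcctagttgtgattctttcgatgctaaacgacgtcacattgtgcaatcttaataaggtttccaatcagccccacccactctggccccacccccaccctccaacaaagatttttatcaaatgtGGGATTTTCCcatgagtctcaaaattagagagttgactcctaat
Cxcl1: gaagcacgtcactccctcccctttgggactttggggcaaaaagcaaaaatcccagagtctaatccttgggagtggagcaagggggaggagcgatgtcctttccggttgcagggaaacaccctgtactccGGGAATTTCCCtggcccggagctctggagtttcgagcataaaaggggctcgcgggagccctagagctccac
Cxcl15: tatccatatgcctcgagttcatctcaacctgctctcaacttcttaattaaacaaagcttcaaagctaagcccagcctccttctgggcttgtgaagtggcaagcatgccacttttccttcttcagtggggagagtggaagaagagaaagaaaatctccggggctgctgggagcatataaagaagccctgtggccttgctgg

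In primary MycKO MEFs, 24 of the 31 tested genes changed against WT: 10 rose, against 20.4% of all 13101 genes tested, and 14 fell, against 21.9%. Those that rose included Csf1, the attractants Ccl2, Ccl7, Ccl8 and Cxcl14 and the cytokines Il6 and Lif, and those that fell included Ccl5, Ccl9, Cxcl5, Cxcl15 and Tslp. In MlxKO 4 rose (all genes 3.75%) and 8 fell (5.14%), and in DKO 9 rose (24.0%) and 7 fell (25.5%). The tested genes had a median log2 fold change of -0.47 (MycKO), -0.24 (MlxKO) and 0.06 (DKO), and that of all tested genes lay between -0.00 and 0.00. Fold changes are from limma on log2(CPM + 1), given with their standard error, and a change was called at an adjusted p under 0.05 (Benjamini-Hochberg over all tested genes). The 3 comparisons share the WT libraries. With 3 libraries a group, an exact permutation test of a single gene could not go below p = 0.10. The plot of shares of genes past the threshold sets these counts beside those of all genes.

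**Figure D1:**
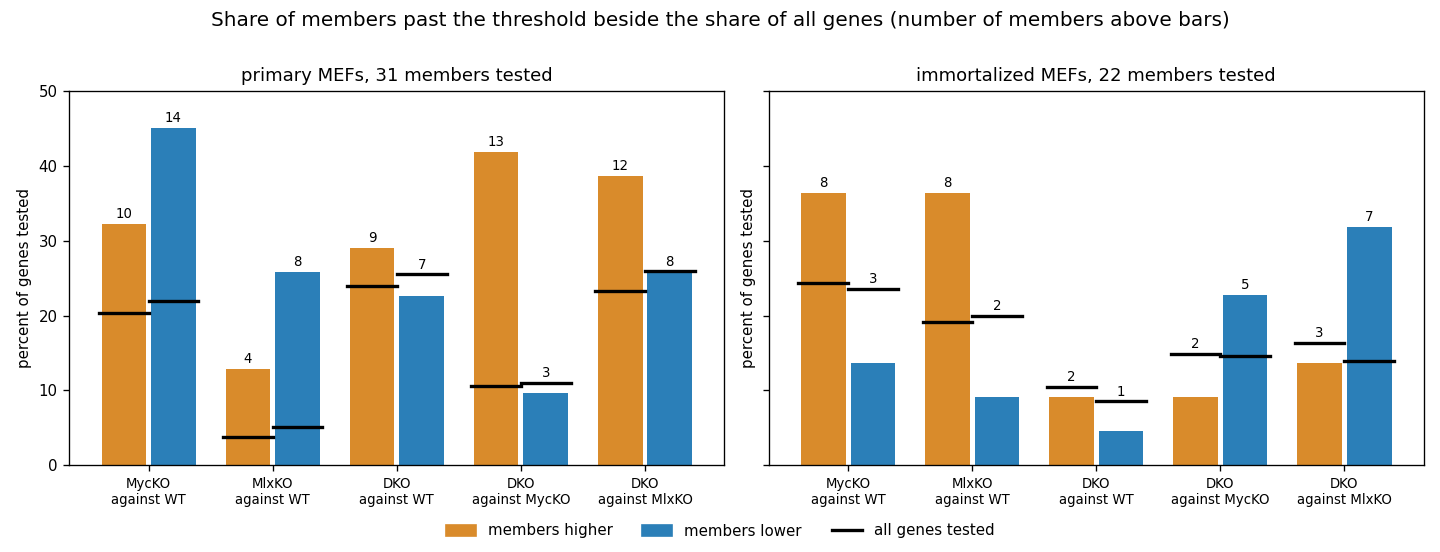
Share of the chemokine and cytokine genes tested that were higher (orange) or lower (blue) at an adjusted p under 0.05 in each comparison, in percent, with the number of genes above each bar and the share of all genes tested as a black line. In primary MycKO against WT, 10 genes were higher and 14 lower, both above the lines at 20.4% and 21.9%, and in immortalized DKO against WT the 2 higher and 1 lower lie below theirs.

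The tested attractants of monocytes and eosinophils, Ccl2, Ccl7, Ccl11, Ccl12 and Ccl8, lie in this order at chr11:81926397-82007625 (GRCm39) within 81.2 kb. Of these 5, 4 rose in primary MycKO (all genes 20.4%) and 1, Ccl12, fell (21.9%). Ccl2 measured 73.3, 66.1 and 50.7 CPM in WT libraries, 86.9, 90.1 and 80.1 in MycKO, 59.5, 68.8 and 90.5 in MlxKO and 45.5, 48.4 and 56.3 in DKO. The MycKO libraries lay above all WT and DKO libraries, and MlxKO overlapped WT. The log2 fold change was 0.44 ± 0.138 in MycKO (adjusted p = 0.0161), 0.19 ± 0.138 in MlxKO (adjusted p = 0.428) and -0.32 ± 0.138 in DKO (adjusted p = 0.0630). Leaving out WT library 3 ended the MycKO call (0.29, adjusted p = 0.0918) and brought the fall in DKO past the threshold (-0.47, adjusted p = 0.00804). The fall in DKO also passed without MlxKO library 5 or 7, MycKO library 10 or DKO library 15 (adjusted p from 0.0317 to 0.0479).

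Ccl7, which binds several receptors of monocytes, stood at 99.6, 92.8 and 109 CPM in WT, 119, 147 and 118 in MycKO, 108, 146 and 167 in MlxKO and 70.1, 68.3 and 76.9 in DKO. All MycKO libraries were above and all DKO libraries below those of WT, and 1 MlxKO library fell within the WT range. It rose by 0.34 ± 0.124 in MycKO (adjusted p = 0.0358) and by 0.46 ± 0.124 in MlxKO (adjusted p = 0.0273), and its fold change in DKO was -0.48 ± 0.124 (adjusted p = 0.00427). Both rises were lost without single libraries: the rise in MycKO without WT library 1 (0.34, adjusted p = 0.0788), WT library 2 (0.29, adjusted p = 0.125) or MycKO library 10 (0.24, adjusted p = 0.109), and the rise in MlxKO without WT library 1 (adjusted p = 0.0849), WT library 2 (0.41, adjusted p = 0.125), MlxKO library 6 (0.42, adjusted p = 0.104) or MlxKO library 7 (0.32, adjusted p = 0.139). Ccl8, at 3.16, 3.58 and 2.92 CPM in WT, measured 7.43, 5.04 and 6.97 in MycKO, 1.07, 1.44 and 2.00 in MlxKO and 3.01, 3.49 and 3.74 in DKO. It was higher than WT in every MycKO library, lower in every MlxKO library and mixed with WT in DKO. Its log2 fold change was 0.81 ± 0.166 in MycKO (adjusted p = 0.000833), -0.77 ± 0.166 in MlxKO (adjusted p = 0.00749) and 0.06 ± 0.166 in DKO (adjusted p = 0.778).

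Ccl5, Ccl9, Ccl6, Ccl3 and Ccl4, attractants of monocytes and T cells, form a further cluster of 5 genes at chr11:83416602-83555509 (139 kb), of which 4 fell in primary MycKO (all genes 21.9%). Ccl9 measured 20.3, 18.1 and 12.3 CPM in WT, 2.49, 2.35 and 2.84 in MycKO, 7.30, 12.9 and 7.65 in MlxKO and 5.88, 4.49 and 8.47 in DKO. The WT libraries lay above all of MycKO and DKO, and MlxKO reached into their range. The fold change was -2.30 ± 0.218 in MycKO (adjusted p = 4.67e-07), -1.31 ± 0.218 in DKO (adjusted p = 0.000112) and -0.81 ± 0.218 in MlxKO (adjusted p = 0.0270). The MlxKO call was lost without MlxKO library 5 (-0.68, adjusted p = 0.112) or 7 (-0.71, adjusted p = 0.116) or WT library 1 (-0.67, adjusted p = 0.134) or 2 (-0.75, adjusted p = 0.112).

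Ccl5 (RANTES), an attractant of T cells and monocytes, stood at 7.79, 5.92 and 3.04 CPM in WT, 0.887, 0.589 and 0.747 in MycKO, 2.99, 2.51 and 3.24 in MlxKO and 6.03, 7.18 and 7.83 in DKO. MycKO was below every other library, while DKO lay within and above the WT range. It fell by 1.85 ± 0.214 on the log2 scale in MycKO (adjusted p = 3.64e-06) and did not pass in MlxKO (-0.68 ± 0.214, adjusted p = 0.0571) or DKO (0.35 ± 0.214, adjusted p = 0.190). Without WT library 3 the MlxKO difference was -1.0 (adjusted p = 0.00137), and without MycKO library 10 it was -0.68 (adjusted p = 0.0338). Without WT library 1 the DKO difference was 0.59 (adjusted p = 0.0282). Between DKO and MycKO it was 2.20 ± 0.214 higher (adjusted p = 1.25e-06).

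The macrophage markers moved with some of the CC chemokines and not with others. In MycKO and in DKO 12 of 12 macrophage markers fell. In MlxKO 0 of 12 were called by limma, edgeR or DESeq2, and 4 had an unadjusted p under 0.05 in limma. Ccl3, Ccl4, Ccl12 and Tnf, which macrophages are known to secrete and which were picked after their values were seen, had fold changes in MycKO of -1.25 ± 0.219 (adjusted p = 0.000217), -1.03 ± 0.277 (adjusted p = 0.00675), -1.71 ± 0.216 (adjusted p = 8.62e-06) and -0.75 ± 0.239 (adjusted p = 0.0178). In DKO only Ccl12 of these 4 passed, at -0.85 ± 0.216 (adjusted p = 0.00375), and Ccl3 (-0.35 ± 0.219, adjusted p = 0.196), Ccl4 (-0.45 ± 0.277, adjusted p = 0.190) and Tnf (-0.47 ± 0.239, adjusted p = 0.114) did not. Ccl8 and Ccl11 rose in MycKO, and Ccl6 and Ccl20 were not called there. Ccl4 reached only 2.37 CPM at most in these libraries and had no read in MycKO library 10. In DKO library 15, which had the highest macrophage sum of its group (260 against 127 and 114 CPM), Ccl12 measured 2.48 CPM against 1.07 and 0.951, and Tnf 1.38 against 0.460 and 0.106. The plot of macrophage markers sets these genes beside the marker sum by library. The part that macrophage RNA has in these differences was not tested.

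**Figure D2:**
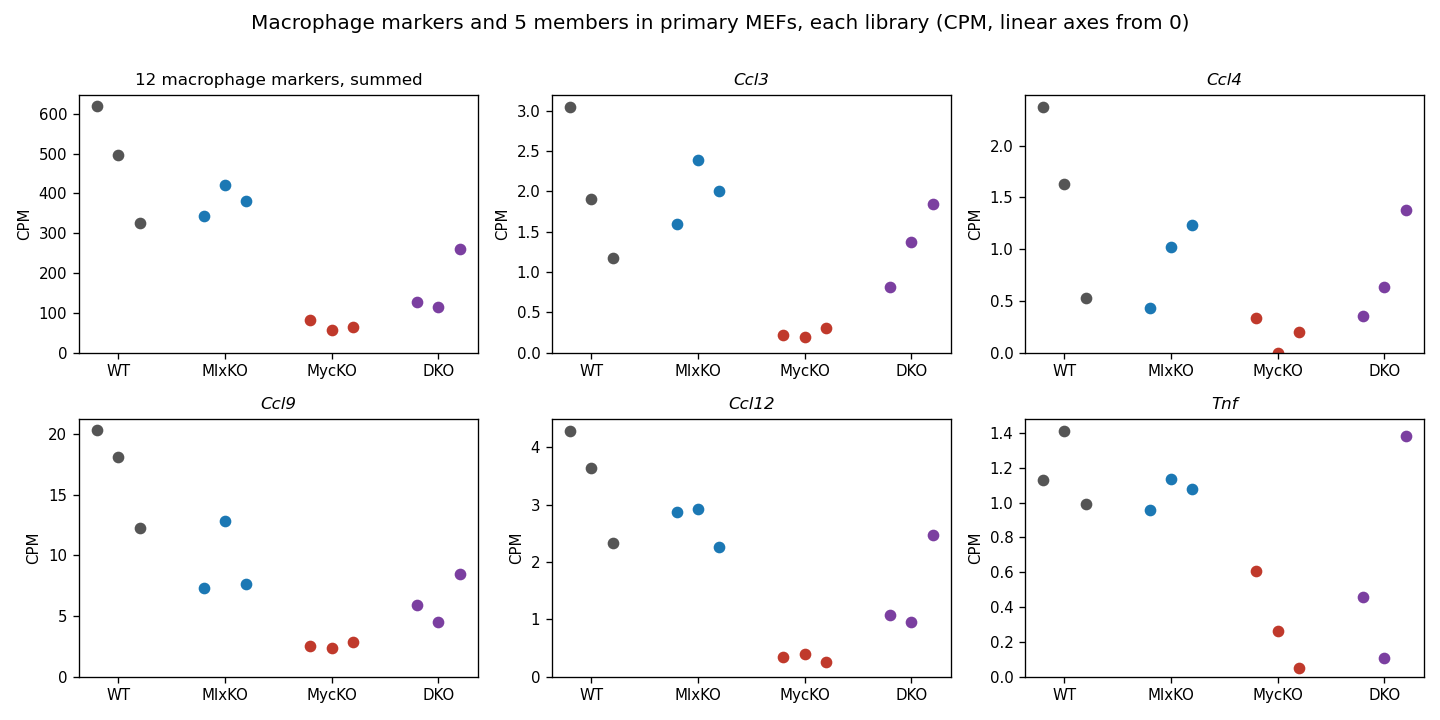
Summed CPM of 12 macrophage markers and CPM of Ccl3, Ccl4, Ccl9, Ccl12 and Tnf in each of the 12 primary libraries (dots), by group, on linear axes from 0. The marker sum lies between 325 and 619 CPM in WT and between 55.8 and 82.7 CPM in MycKO, and DKO library 15, at 260 CPM, is the highest of its group in all 6 panels.

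Cx3cl1 (fractalkine, chr8:95498637-95509055 on the plus strand), a membrane-bound chemokine that is also shed, measured 31.1, 30.5 and 34.6 CPM in WT, 43.4, 42.2 and 43.8 in MycKO, 28.7, 27.9 and 22.1 in MlxKO and 57.0, 56.1 and 54.4 in DKO. The 4 groups did not overlap, in the order MlxKO, WT, MycKO, DKO. It rose by 0.42 ± 0.0895 in MycKO (adjusted p = 0.00123) and by 0.78 ± 0.0895 in DKO (adjusted p = 2.28e-06), and its value in MlxKO was -0.29 ± 0.0895 (adjusted p = 0.0557). That last difference passed without MlxKO library 5 (-0.35, adjusted p = 0.0387) or MycKO library 10 (-0.29, adjusted p = 0.0292).

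The ELR chemokines, which attract neutrophils through CXCR2, lie within 147 kb at chr5:90907186-91053797, and of the 4 tested there 3 fell in primary MycKO (all genes 21.9%). Cxcl15 (lungkine), known from lung epithelium, measured 12.4, 10.0 and 10.8 CPM in WT, 0.998, 1.44 and 1.20 in MycKO, 13.1, 16.9 and 14.1 in MlxKO and 0.818, 1.43 and 0.864 in DKO. Both groups that lack Myc were far below WT and MlxKO, with no overlap. The fold change was -2.45 ± 0.150 in MycKO (adjusted p = 5.25e-09), -2.58 ± 0.150 in DKO (adjusted p = 1.57e-09) and 0.37 ± 0.150 in MlxKO (adjusted p = 0.134). Cxcl5 stood at 46.2, 46.5 and 36.6 CPM in WT, 15.1, 16.7 and 14.8 in MycKO, 54.2, 80.3 and 75.0 in MlxKO and 42.6, 47.3 and 49.3 in DKO. It was lowest in MycKO and highest in MlxKO, and DKO lay within and above the WT range. The changes were -1.41 ± 0.126 in MycKO (adjusted p = 2.53e-07), 0.67 ± 0.126 in MlxKO (adjusted p = 0.00300) and 0.11 ± 0.126 in DKO (adjusted p = 0.497), and DKO was 1.52 ± 0.126 above MycKO (adjusted p = 1.92e-07).

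Cxcl12 (SDF-1, chr6:117144945-117158328 on the plus strand), which retains stem cells and leukocytes in tissues through CXCR4, measured 241, 246 and 301 CPM in WT, 258, 243 and 250 in MycKO, 228, 228 and 196 in MlxKO and 522, 503 and 504 in DKO. Only DKO stood clear above the rest, and MycKO overlapped WT. The log2 fold change was 0.96 ± 0.0797 in DKO (adjusted p = 6.65e-08), -0.06 ± 0.0797 in MycKO (adjusted p = 0.555) and -0.27 ± 0.0797 in MlxKO (adjusted p = 0.0462). The small fall in MlxKO was lost without any of 10 single libraries, among them WT library 3 (-0.17, adjusted p = 0.144) and MlxKO library 7 (-0.20, adjusted p = 0.180), and the others were WT library 2, MlxKO libraries 5 and 6, MycKO libraries 9 and 11 and DKO libraries 13, 14 and 15 (adjusted p from 0.0544 to 0.0674).

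Cxcl14 (chr13:56436352-56444603 on the minus strand), which is made by epithelia and fibroblasts, stood at 50.1, 50.8 and 48.3 CPM in WT, 130, 94.8 and 121 in MycKO, 35.3, 33.4 and 35.5 in MlxKO and 148, 140 and 146 in DKO. The 4 groups were separate, with both groups that lack Myc on top. It rose by 1.18 ± 0.0893 in MycKO (adjusted p = 4.32e-08) and 1.52 ± 0.0893 in DKO (adjusted p = 1.75e-09) and fell by 0.50 ± 0.0893 on the log2 scale in MlxKO (adjusted p = 0.00195). Cxcl16, a membrane-bound ligand of CXCR6 whose exons overlap Med11 and Zmynd15 on the opposite strand, measured 15.4, 11.5 and 9.23 CPM in WT, 6.65, 6.54 and 5.78 in MycKO, 6.82, 9.03 and 7.86 in MlxKO and 9.81, 8.61 and 9.91 in DKO. It was lower than every WT library in MycKO and MlxKO and overlapped WT in DKO. The changes were -0.81 ± 0.150 (adjusted p = 0.000376), -0.53 ± 0.150 (adjusted p = 0.0359) and -0.30 ± 0.150 (adjusted p = 0.114). The MlxKO call was lost without WT library 1 (-0.35, adjusted p = 0.193), WT library 2 (-0.55, adjusted p = 0.0920), MlxKO library 5 (-0.44, adjusted p = 0.130), MlxKO library 7 (-0.53, adjusted p = 0.0925) or DKO library 13 (adjusted p = 0.0514), and without WT library 3 the DKO difference passed (-0.46, adjusted p = 0.0168).

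Csf1 (M-CSF, chr3:107648364-107667806 on the minus strand), on which macrophages depend for survival, was the cytokine with the most reads. Its level was 531, 569 and 505 CPM in WT, 986, 903 and 994 in MycKO, 437, 443 and 449 in MlxKO and 923, 944 and 954 in DKO. MycKO and DKO were far above WT and overlapped each other, and MlxKO was below WT in all libraries. The rise was 0.84 ± 0.0598 in MycKO (adjusted p = 2.14e-08) and 0.81 ± 0.0598 in DKO (adjusted p = 2.09e-08), and the value in MlxKO was -0.27 ± 0.0598 (adjusted p = 0.00866), which without WT library 2 was -0.23 (adjusted p = 0.0642). Csf1 thus rose in the groups in which its receptor Csf1r, one of the macrophage markers, fell from a mean of 50.2 CPM in WT to 6.85 in MycKO and 15.8 in DKO.

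Il6, the cytokine of the acute phase response, measured 2.93, 3.80 and 3.21 CPM in WT, 5.10, 5.43 and 5.68 in MycKO, 1.87, 3.71 and 2.88 in MlxKO and 9.76, 7.50 and 8.98 in DKO. The order MycKO above WT and DKO above MycKO held for all libraries, and MlxKO overlapped WT. The change was 0.57 ± 0.165 in MycKO (adjusted p = 0.010), 1.17 ± 0.165 in DKO (adjusted p = 2.02e-05) and -0.20 ± 0.165 in MlxKO (adjusted p = 0.498). Lif, a relative of IL-6 that keeps stem cells undifferentiated, stood at 27.8, 24.0 and 23.3 CPM in WT, 35.3, 27.2 and 32.4 in MycKO, 18.6, 21.4 and 16.4 in MlxKO and 37.1, 36.1 and 33.7 in DKO. DKO was above and MlxKO below all WT libraries, and 1 MycKO library fell within the WT range. The values were 0.50 ± 0.110 in DKO (adjusted p = 0.00130), 0.32 ± 0.110 in MycKO (adjusted p = 0.0263) and -0.40 ± 0.110 in MlxKO (adjusted p = 0.0301).

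The calls of Lif in the single knockouts rested on few libraries. That in MycKO was lost without WT library 2 (0.29, adjusted p = 0.0815) or 3 (0.27, adjusted p = 0.0884) or MycKO library 9 (0.24, adjusted p = 0.127) or 11 (0.30, adjusted p = 0.0734). That in MlxKO was lost without WT library 1 (-0.33, adjusted p = 0.148) or 2 (-0.43, adjusted p = 0.0680) or MlxKO library 5 (-0.40, adjusted p = 0.0773) or 7 (-0.31, adjusted p = 0.132).

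Tslp, an epithelial and stromal cytokine that acts on dendritic cells and mast cells, measured 13.1, 8.96 and 10.6 CPM in WT, 3.31, 5.44 and 5.75 in MlxKO, 2.05, 2.22 and 1.54 in MycKO and 1.12, 1.27 and 1.38 in DKO. The 4 groups did not overlap. It fell in all 3 knockouts, by 1.04 ± 0.179 on the log2 scale in MlxKO (adjusted p = 0.00160), 2.01 ± 0.179 in MycKO (adjusted p = 2.50e-07) and 2.39 ± 0.179 in DKO (adjusted p = 2.42e-08). Krt8, the only epithelial marker tested, fell in the same groups, from a mean of 6.66 CPM in WT to 1.37 in MlxKO, 0.703 in MycKO and 0.509 in DKO. The endothelial marker Kdr fell from 12.8 CPM to 2.70, 5.12 and 2.95 in that order. Of the 2 endothelial markers tested, 1 fell and 0 rose in MlxKO and in MycKO, and 1 fell and 1 rose in DKO. The muscle marker Des fell from 81.5 to 36.8 in MlxKO and 30.7 in MycKO and stood at 79.0 in DKO. Their part in the result was not tested. Tnfsf11 (RANKL, chr14:78514885-78545490 on the minus strand), which drives the formation of osteoclasts, stood at 12.4, 12.1 and 13.7 CPM in WT, 8.98, 6.41 and 7.32 in MycKO, 11.0, 12.8 and 12.2 in MlxKO and 9.91, 9.82 and 9.68 in DKO. MycKO and DKO lay below WT, and MlxKO overlapped it. The changes were -0.69 ± 0.116 in MycKO (adjusted p = 0.000149), -0.34 ± 0.116 in DKO (adjusted p = 0.0207) and -0.08 ± 0.116 in MlxKO (adjusted p = 0.733). Without WT library 3 (-0.29, adjusted p = 0.0758) or DKO library 15 (-0.34, adjusted p = 0.0553) the DKO call was lost. The plot of primary levels shows the library values of the 16 genes described.

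**Figure D3:**
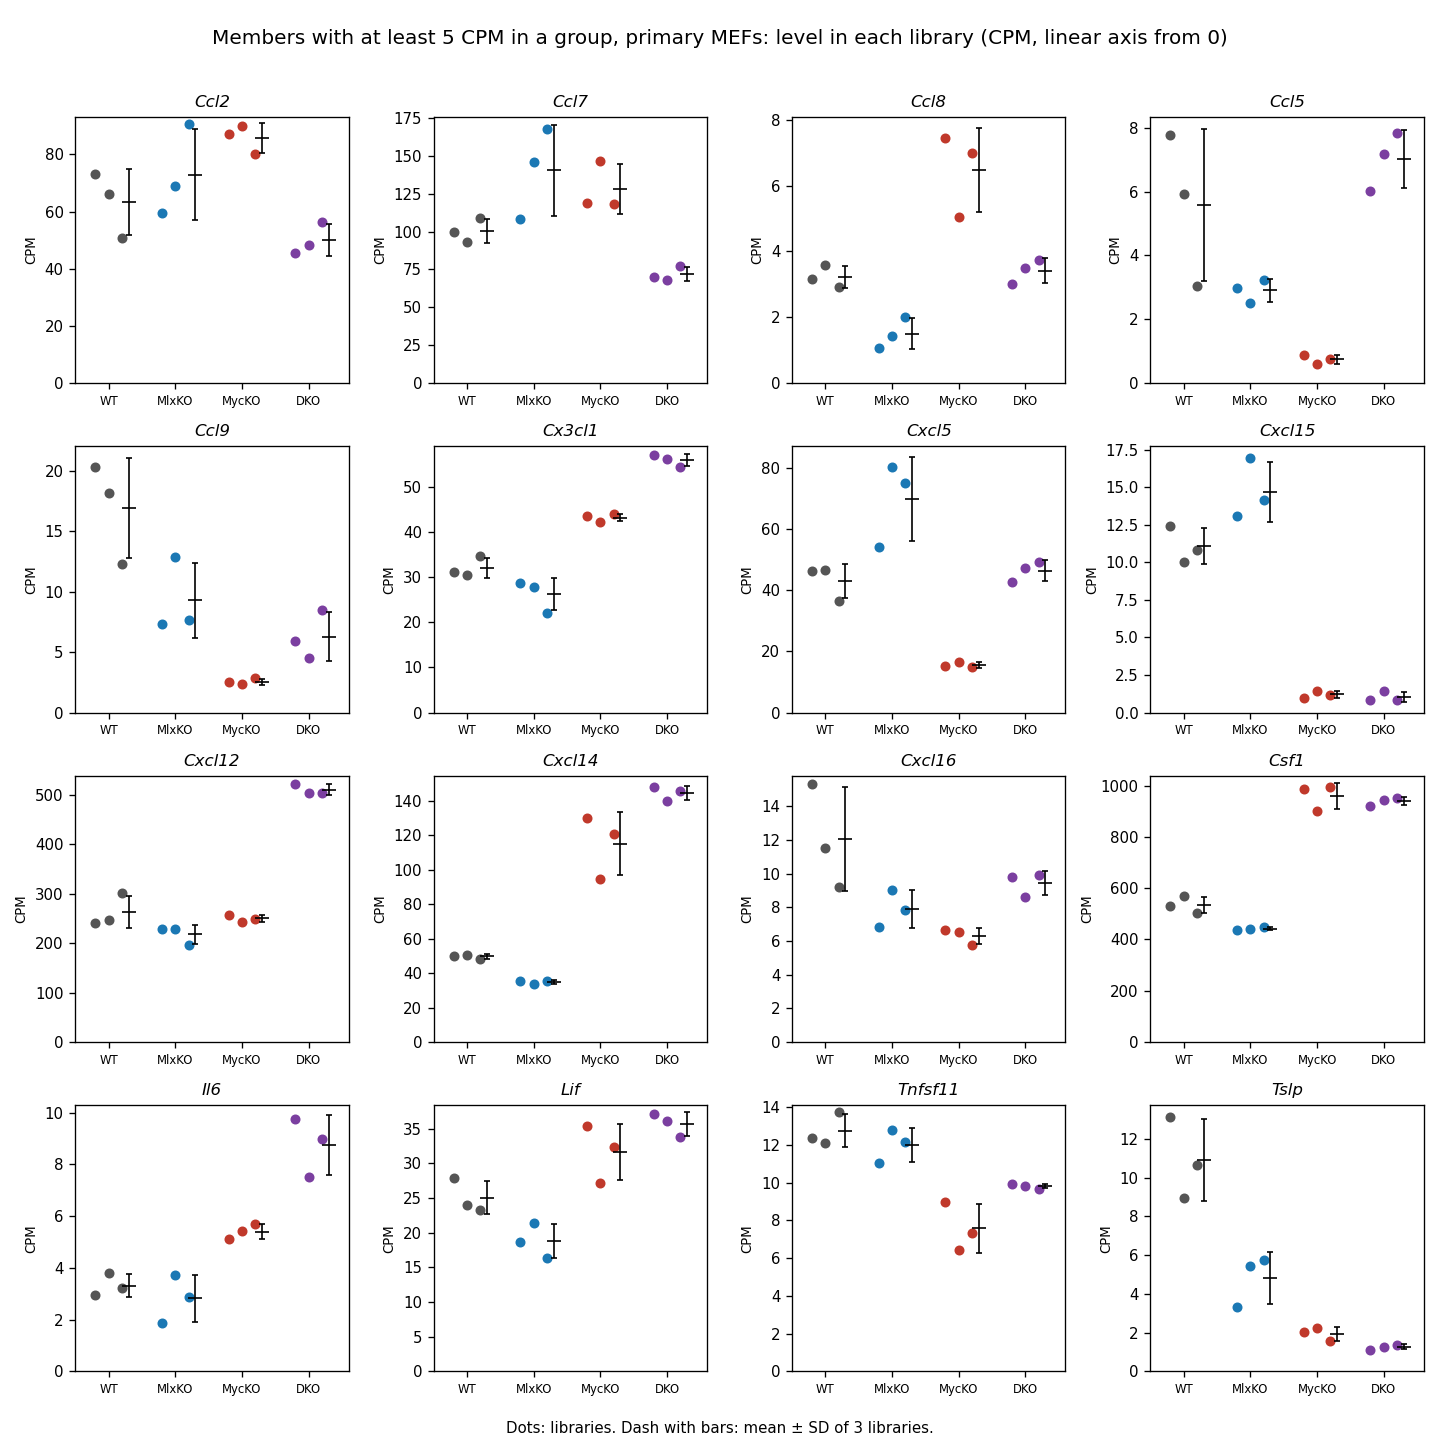
CPM of 16 chemokine and cytokine genes in each of the 12 primary libraries (dots), by group, on linear axes from 0, with the mean ± SD of 3 libraries as a dash with bars. Cxcl15 lies at or below 1.44 CPM in MycKO and DKO against 10.0 to 16.9 CPM in WT and MlxKO, and Cxcl12 lies between 503 and 522 CPM in DKO against 196 to 301 CPM in the other groups.

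Between the knockouts, primary DKO exceeded MycKO in 13 of the 31 genes (all genes 10.6%) and was lower in 3 (11.0%), which were Ccl2, Ccl7 and Ccl8. In the same comparison 9 of 12 macrophage markers were higher, and the 13 genes include Ccl3, Ccl5, Ccl6, Ccl9, Ccl12, Cxcl9 and Cxcl16. The part of the markers in these differences was not tested. Ccl2 was lower by -0.77 ± 0.138 (adjusted p = 0.000672), Ccl7 by -0.82 ± 0.124 (adjusted p = 0.000136) and Ccl8 by -0.75 ± 0.166 (adjusted p = 0.00346) on the log2 scale. Against MlxKO, DKO was higher in 12 (23.3%) and lower in 8 (25.9%). The effect of losing Mlx differed between cells with and without Myc, tested as an interaction, for 15 of the 31 genes (13.5% of all genes), and was more positive without Myc for 12 of them and more negative for 3, which were Ccl2, Ccl7 and Il33. Of the 12 macrophage markers 10 had a positive interaction. The interaction was largest for Ccl5, at 2.88 ± 0.303 (adjusted p = 6.40e-06). The plot of fold changes shows every tested gene in both tables, with wider intervals in immortalized MEFs for the genes in which WT library 4 lay apart, such as Cxcl10 and Tslp.

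**Figure D4:**
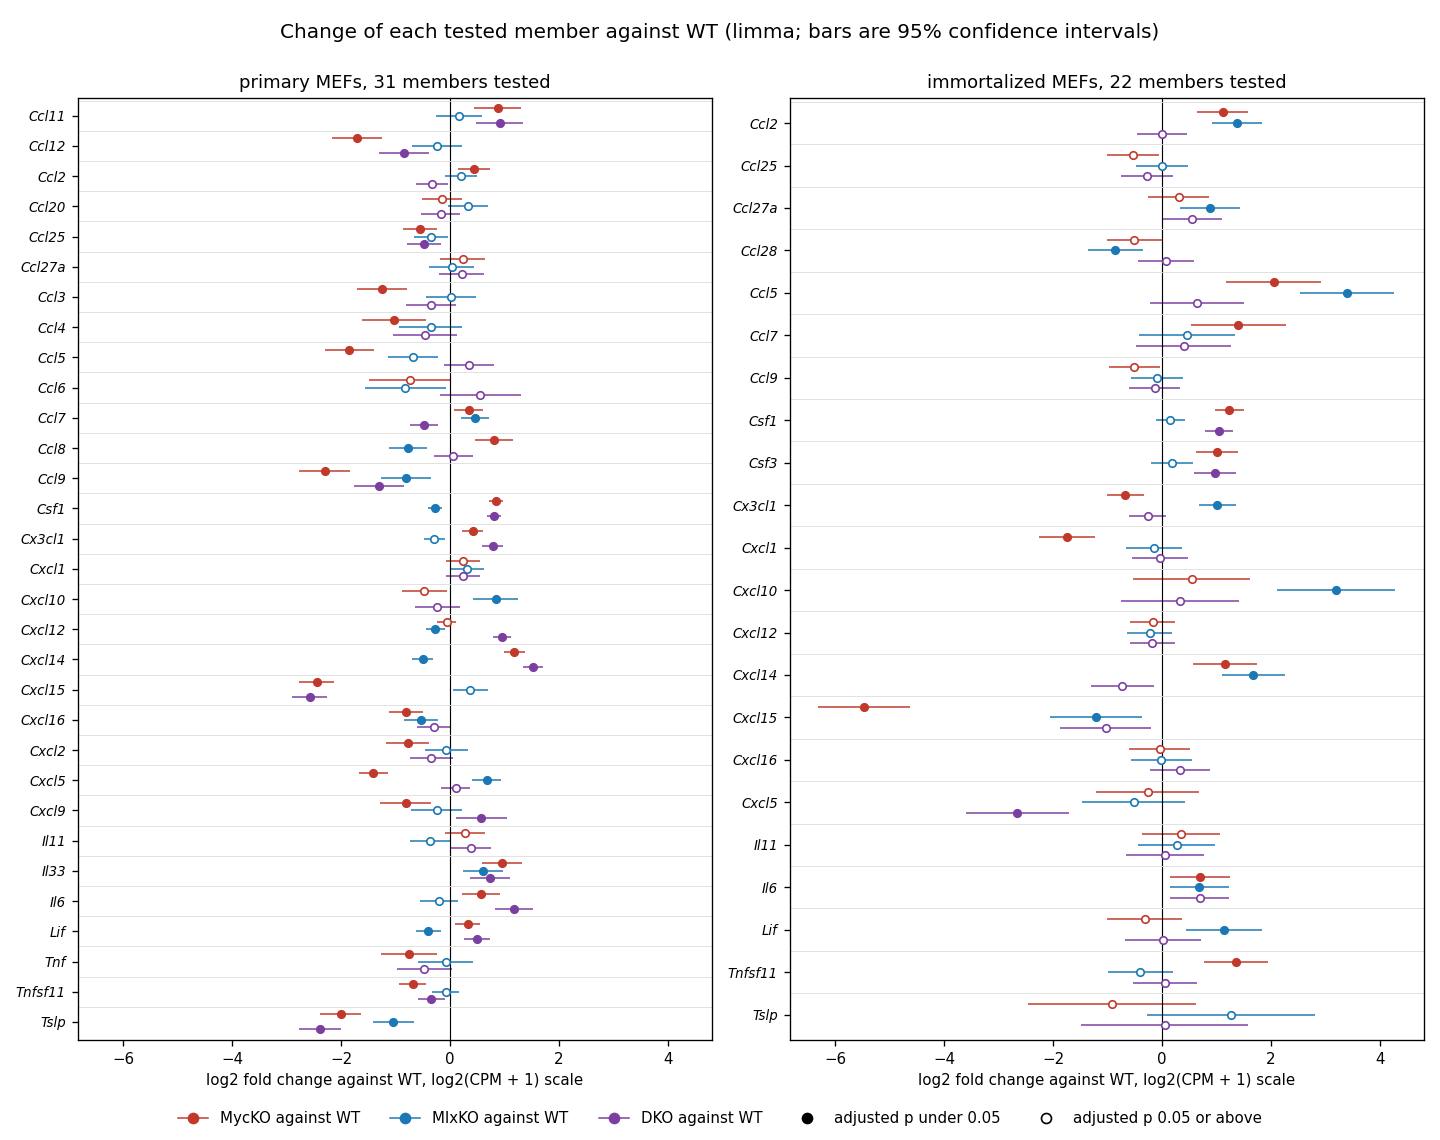
Log2 fold change against WT on the log2(CPM + 1) scale of each gene tested, with 95% confidence intervals, for MycKO (red), MlxKO (blue) and DKO (purple) in primary (left) and immortalized MEFs (right). Filled dots are at an adjusted p under 0.05, and the largest values are those of immortalized Cxcl15 in MycKO (-5.47) and immortalized Ccl5 in MlxKO (3.41).

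In immortalized MEFs, 8 of the 22 tested genes rose in MycKO (all 12880 genes tested, 24.4%) and 3 fell (23.5%), 8 rose in MlxKO (19.1%) and 2 fell (19.9%), and 2 rose in DKO (10.4%) and 1 fell (8.51%). The 2 that rose in DKO were Csf1 and Csf3, the growth factor of neutrophils, and the 1 that fell was Cxcl5. Without WT library 4 the counts were 9 higher and 4 lower in MycKO (27.3% and 26.7%), 10 and 2 in MlxKO (23.1% and 23.8%) and 5 and 2 in DKO (12.0% and 10.1%). DKO exceeded MycKO in 2 genes (14.8%) and was lower in 5 (14.6%), or 5 and 6 without WT library 4 (20.5% each way). Against MlxKO it was higher in 3 (16.3%) and lower in 7 (13.9%), or 3 and 8 (22.6% and 20.6%). The interaction passed for 9 of 22 genes against 47.4% of all genes, and for 16 against 56.7% without library 4.

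Cxcl15 had the largest fall of all. It measured 72.3, 84.8 and 22.8 CPM in WT libraries 2, 3 and 4, 0.0511, 0.220 and 0.338 in MycKO, 31.3, 17.8 and 19.0 in MlxKO and 21.7, 24.0 and 29.7 in DKO. MycKO was near 0, and MlxKO and DKO were below WT libraries 2 and 3 but overlapped library 4. The change was -5.47 ± 0.388 in MycKO (adjusted p = 6.90e-07), and -6.05 without WT library 4. In MlxKO it was -1.21 ± 0.388 (adjusted p = 0.0278) and in DKO -1.04 ± 0.388 (adjusted p = 0.0805), and without WT library 4 these were -1.79 (adjusted p = 2.75e-05) and -1.61 (adjusted p = 0.000133). The MlxKO call was lost without WT library 2 (-0.97, adjusted p = 0.106) or 3 (-0.86, adjusted p = 0.0946) or MlxKO library 6 (-1.06, adjusted p = 0.105) or 7 (-1.11, adjusted p = 0.0900). DKO was 4.44 ± 0.388 above MycKO (adjusted p = 4.51e-06).

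The other ELR chemokines moved otherwise. Cxcl1, at 6.62, 6.49 and 5.60 CPM in WT, was 1.79, 0.879 and 0.90 in MycKO, 7.89, 3.90 and 5.46 in MlxKO and 4.83, 6.17 and 7.46 in DKO. MycKO alone lay below WT, by -1.75 ± 0.236 (adjusted p = 0.000106), and by -1.81 without WT library 4. Cxcl5 measured 99.7, 83.0 and 384 CPM in WT, 137, 112 and 120 in MycKO, 134, 80.8 and 99.0 in MlxKO and 17.3, 24.2 and 27.0 in DKO. DKO was below all other libraries, and WT library 4 was above all others. The change in DKO was -2.66 ± 0.435 (adjusted p = 0.00177), and -1.97 ± 0.202 without library 4 (adjusted p = 1.30e-05).

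Ccl5 and Cxcl10 were highest in immortalized MlxKO. Ccl5 stood at 2.75, 4.05 and 0.304 CPM in WT, 12.2, 10.7 and 10.4 in MycKO, 40.7, 24.9 and 26.3 in MlxKO and 2.50, 3.68 and 4.75 in DKO. Every MlxKO library exceeded every MycKO library, and these exceeded WT and DKO, which overlapped. It rose by 3.41 ± 0.398 in MlxKO (adjusted p = 0.000166) and by 2.05 ± 0.398 in MycKO (adjusted p = 0.00134), with 0.64 ± 0.398 in DKO (adjusted p = 0.269). Without WT library 4 these were 2.83, 1.47 and 0.06, of which the first 2 passed. Cxcl10 (IP-10; its exons overlap Art3 on the opposite strand) measured 33.6, 29.6 and 4.87 CPM in WT, 28.5, 23.7 and 25.6 in MycKO, 204, 143 and 162 in MlxKO and 17.2, 26.2 and 24.0 in DKO. MlxKO was far above the rest. Its rise was 3.20 ± 0.498 (adjusted p = 0.000797), and 2.38 ± 0.176 without WT library 4 (adjusted p = 2.67e-07).

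Ccl2 was higher in both single knockouts and not in DKO: 32.6, 21.4 and 18.7 CPM in WT, 67.3, 43.4 and 48.6 in MycKO, 73.9, 55.0 and 60.9 in MlxKO and 20.1, 24.8 and 26.3 in DKO. WT and DKO overlapped and lay below the other groups. The change was 1.11 ± 0.213 in MycKO (adjusted p = 0.00120), 1.38 ± 0.213 in MlxKO (adjusted p = 0.000771) and 0.00 ± 0.213 in DKO (adjusted p = 0.995), or 0.96, 1.22 and -0.15 without WT library 4. Its neighbour Ccl7 measured 38.1, 31.1 and 10.7 CPM in WT, 96.9, 48.3 and 54.9 in MycKO, 45.8, 24.6 and 30.8 in MlxKO and 27.3, 29.0 and 39.0 in DKO. Only MycKO lay above all WT libraries. It rose there by 1.40 ± 0.402 (adjusted p = 0.0130), by 0.87 without WT library 4 (adjusted p = 0.0178) and by 1.10 without MycKO library 9 (adjusted p = 0.0595), which ended the call.

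Cx3cl1 stood at 24.8, 31.3 and 37.3 CPM in WT, 15.7, 20.2 and 21.2 in MycKO, 63.8, 61.8 and 64.2 in MlxKO and 29.0, 24.2 and 23.6 in DKO. MlxKO was above and MycKO below all WT libraries, and DKO overlapped WT. The change was 1.02 ± 0.157 in MlxKO (adjusted p = 0.000774) and -0.68 ± 0.157 in MycKO (adjusted p = 0.00415), or 1.15 and -0.54 without WT library 4, both of which passed.

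Csf1 again rose wherever Myc was lost: 245, 281 and 325 CPM in WT, 597, 713 and 697 in MycKO, 302, 325 and 315 in MlxKO and 618, 579 and 564 in DKO. MycKO and DKO lay well above WT, and MlxKO among WT. The rise was 1.24 ± 0.120 in MycKO (adjusted p = 8.36e-06) and 1.05 ± 0.120 in DKO (adjusted p = 0.000172), or 1.34 and 1.16 without WT library 4. The macrophage markers were near 0 in these lines. Tnfsf11 measured 3.63, 2.16 and 7.06 CPM in WT, 12.5, 9.72 and 12.9 in MycKO, 2.81, 2.30 and 3.11 in MlxKO and 3.92, 4.81 and 3.64 in DKO. It was higher in MycKO than in any other library, by 1.36 ± 0.273 (adjusted p = 0.00166), or 1.72 without WT library 4. Lif stood at 5.97, 4.88 and 17.2 CPM in WT, 6.49, 6.10 and 6.25 in MycKO, 16.4, 18.5 and 22.7 in MlxKO and 8.70, 7.92 and 7.95 in DKO. WT library 4 lay within the MlxKO range. The rise of Lif in MlxKO was 1.14 ± 0.320 (adjusted p = 0.0152) and 1.64 without WT library 4, and the call was lost without WT library 2 (0.95, adjusted p = 0.0630) or MlxKO library 7 (1.02, adjusted p = 0.0624).

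Tslp and Il11 passed against WT only without WT library 4, where each stood far from libraries 2 and 3. Tslp was at 1.58, 1.05 and 26.1 CPM in WT, 1.58, 2.03 and 1.74 in MycKO, 17.1, 8.91 and 10.3 in MlxKO and 3.87, 4.30 and 5.19 in DKO, and without library 4 its changes in MlxKO and DKO were 2.46 (adjusted p = 2.47e-06) and 1.24 (adjusted p = 0.00169). With all libraries they were 1.27 ± 0.709 (adjusted p = 0.170) and 0.05 ± 0.709 (adjusted p = 0.968). Il11, a relative of IL-6, stood at 1.41, 1.05 and 5.36 CPM in WT and between 2.15 and 3.78 CPM in the knockouts. The plot of immortalized levels marks library 4 in each gene described.

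**Figure D5:**
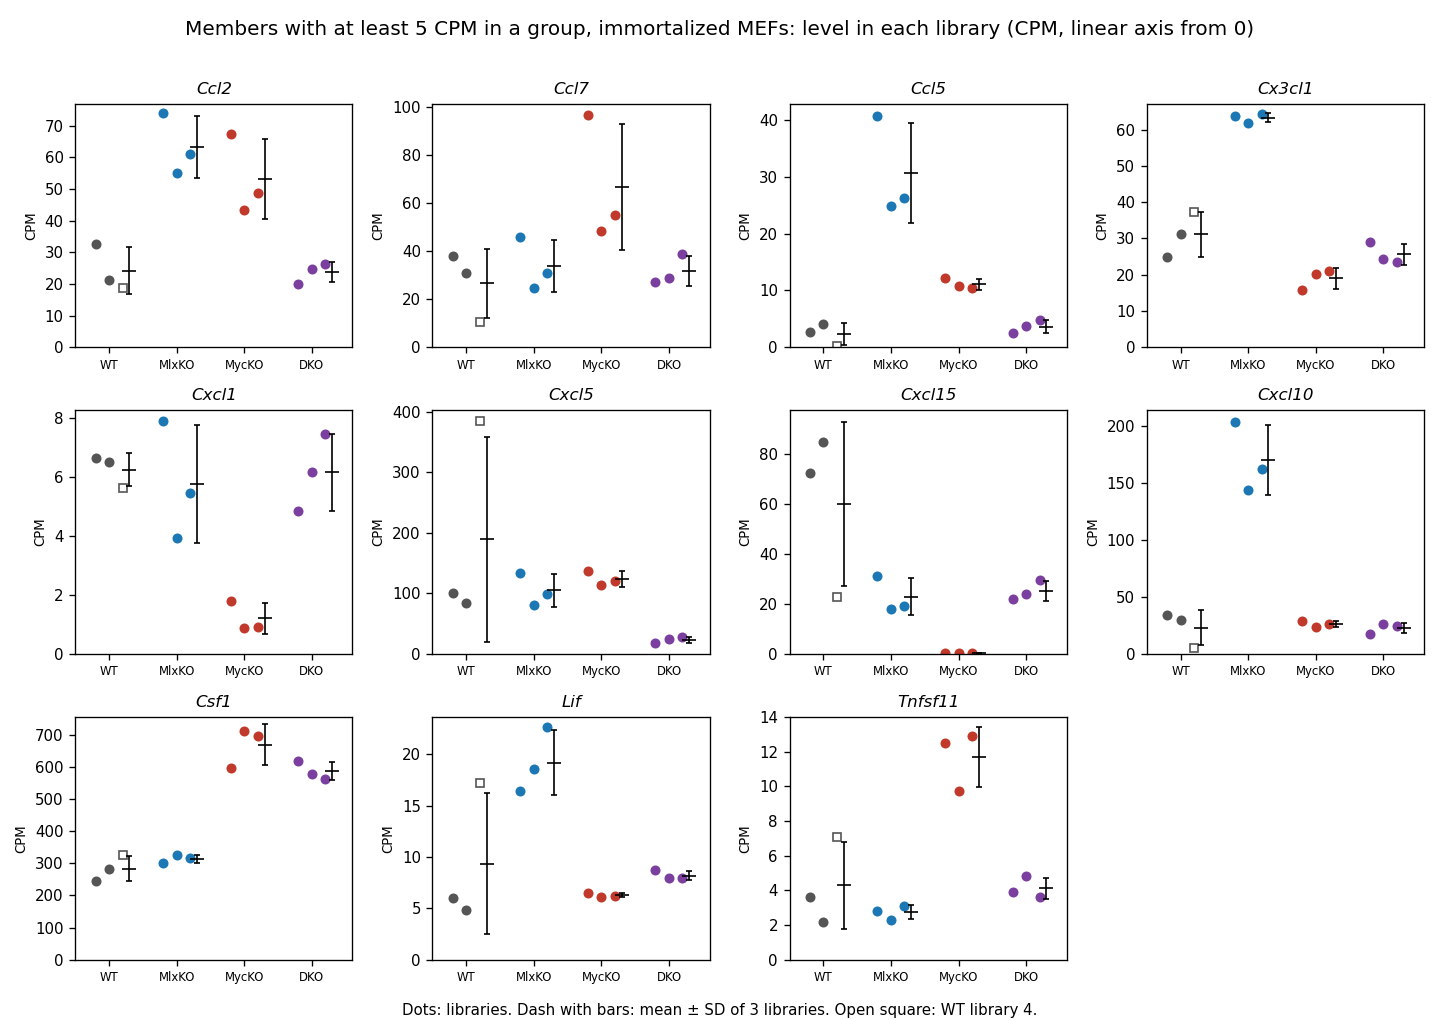
CPM of 11 chemokine and cytokine genes in each of the 12 immortalized libraries (dots), by group, on linear axes from 0, with the mean ± SD of 3 libraries as a dash with bars and WT library 4 as an open square. Ccl5 and Cxcl10 are highest in the 3 MlxKO libraries (24.9 to 40.7 and 143 to 204 CPM), and WT library 4 lies apart from libraries 2 and 3 for Cxcl5, Cxcl15, Cxcl10 and Lif.

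Of the 20 genes tested in both tables, Csf1 rose in MycKO and DKO of both. In MycKO Ccl2, Ccl7, Cxcl14 and Il6 also rose in both and Cxcl15 fell in both, and in MlxKO Cxcl10 rose in both. Several changes had the opposite direction in the tables, which were normalized separately and were not tested against each other. Ccl5 fell in primary MycKO (-1.85) and rose in immortalized MycKO (2.05), as did Tnfsf11 (-0.69 and 1.36), whereas Cx3cl1 rose in primary (0.42) and fell in immortalized MycKO (-0.68). Cxcl14 fell in primary MlxKO (-0.50) and rose in immortalized MlxKO (1.68), and Lif was called in the same directions. Cxcl14 was low in immortalized MEFs: 0.293, 0.555 and 2.13 CPM in WT libraries 2, 3 and 4 and 4.11, 4.80 and 5.97 in MlxKO.

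The receptors, decoys and signalling genes of these factors were followed in a list of 78 genes. In primary MEFs 60 were tested, of which 14 rose and 15 fell in MycKO, 5 and 5 in MlxKO and 21 and 14 in DKO, where 20.4% and 21.9%, 3.75% and 5.14%, and 24.0% and 25.5% of all genes did. Of the 18 chemokine receptors, which leukocytes mainly carry, 5 were tested in primary MEFs, and 4 of them fell in MycKO and 3 in DKO. No chemokine receptor reached the filter in immortalized MEFs, where 13 of 51 genes tested rose and 16 fell in MycKO, 14 and 8 in MlxKO and 10 and 5 in DKO, or 16 and 17, 17 and 13, and 11 and 7 without WT library 4. The shares of all genes there were 24.4% and 23.5%, 19.1% and 19.9%, and 10.4% and 8.51%, or 27.3% and 26.7%, 23.1% and 23.8%, and 12.0% and 10.1% without that library.

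The genes named next are those with the largest changes in each comparison, and they include receptors and decoys of the ligands above. Tnfrsf11b (osteoprotegerin), the decoy that binds RANKL, rose from a mean of 44.0 CPM in primary WT to 125 in MycKO (1.48 ± 0.0734, adjusted p = 7.28e-10) and 138 in DKO (1.63 ± 0.0734, adjusted p = 9.39e-11). The TSLP receptor Crlf2 rose in primary MycKO by 0.73 ± 0.110 (adjusted p = 5.76e-05). The IL-33 receptor Il1rl1 fell in primary DKO from 939 to 243 CPM (-1.94 ± 0.0728, adjusted p = 1.05e-11), where Il33 itself rose by 0.73 ± 0.172 (adjusted p = 0.00211). Il33, whose group means lay under 5 CPM, was also called higher in primary MycKO and MlxKO. The second largest fall in primary DKO was that of Csf1r (-1.64 ± 0.217, adjusted p = 1.14e-05). Cx3cr1, the receptor of Cx3cl1, had the second largest fall in primary MycKO, from 8.36 to 0.610 CPM (-2.50 ± 0.174, adjusted p = 1.66e-08), after Csf1r (-2.66 ± 0.217, adjusted p = 9.10e-08). Csf1r is one of the 12 macrophage markers, all of which fell in primary MycKO and DKO. The part that macrophage RNA has in the falls of these receptors was not tested. In primary MlxKO Csf2ra (0.57 ± 0.125) and Lifr (0.46 ± 0.113) rose and Fos (-0.88 ± 0.244) and Nfkbiz (-0.68 ± 0.131) fell, and in primary DKO the scavenging receptor Ackr4 rose (1.17 ± 0.210).

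In immortalized MycKO the RANK receptor Tnfrsf11a rose from 4.86 to 28.6 CPM (2.38 ± 0.189, adjusted p = 1.80e-06), beside the rise of its ligand Tnfsf11, and Jun rose by 1.26 ± 0.207. The IL-1 antagonist Il1rn fell there from 64.6 to 3.06 CPM (-3.98 ± 0.203, adjusted p = 5.09e-08) and Fos fell by 3.74 ± 0.587 on the log2 scale. Without WT library 4 these were 2.59, 1.46, -3.73 and -4.65 in the order named. In immortalized MlxKO 7 of the 14 NF-kappa-B subunit and feedback genes rose and 2 fell (all genes 19.1% and 19.9%), or 6 and 3 without WT library 4 (23.1% and 23.8%). In MycKO 4 rose and 3 fell (24.4% and 23.5%), or 5 and 3 without WT library 4 (27.3% and 26.7%). In DKO 2 rose and 1 fell with and without that library (10.4% and 8.51%, or 12.0% and 10.1%). In MlxKO Nfkb2 rose from 44.3 to 113 CPM (1.37 ± 0.202, adjusted p = 0.000600). The inhibitor Nfkbie rose there from 3.55 to 9.51 (1.22 ± 0.167, adjusted p = 0.000411), whereas Il1rn (-2.21 ± 0.203) and the IL-1 receptor Il1r1 (-1.03 ± 0.138) fell. Without WT library 4 the changes were 1.63, 1.33, -1.97 and -1.10. In immortalized DKO the NF-kappa-B feedback gene Tnfaip3 (1.27 ± 0.256) and Tnfrsf11b (1.07 ± 0.210) rose, and the receptors Il6ra (-1.22 ± 0.304) and Lifr (-0.98 ± 0.195) fell. Without WT library 4 they were 1.64, 1.34, -1.69 and -1.03, and all of these immortalized changes passed there too.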

How the data were processed

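Total RNA of 24 libraries, 3 for each of 8 groups, was extracted, enriched for poly-A and sequenced. The authors mapped the reads to GRCm39 in CLC Genomics and deposited CPM values scaled between libraries, with 1 table for primary and 1 for immortalized MEFs. The signal values were thus scaled by the authors and are not raw counts. The method of scaling and the strand setting are not given in the sources used here. The values were whole multiples of 1 read within a tolerance of 0.02, so that reads per library could be recovered. The tables were normalized separately and were not tested against each other.

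Genes with at least 1 CPM in 3 of 12 libraries were tested with limma 3.58.1 (R 4.3.3) on log2(CPM + 1) with a variance trend, 2-sided, with the 4 groups of a table in a fit and Benjamini-Hochberg adjustment over all genes tested. The members, gene lists and tests were chosen with earlier results of these data known. Chemokine and cytokine genes were described singly where they were called against WT in a table and reached a group mean of 5 CPM there, and of the receptors and signalling genes the 2 largest rises and 2 largest falls among those called in each knockout were named. Ccl3, Ccl4, Ccl12, Tnf, Il33, and in immortalized MEFs Cxcl14, Csf3, Tslp and Il11, were named after their values were seen. Alternatives were a pseudocount of 0.1, no filter, a mean of at least 5 CPM, other scalings, only the groups compared, edgeR 4.0.16 and DESeq2 1.42.0 on recovered reads, and leaving out each library. On simulated data of 12928 genes limma recovered 200 of 200 changed genes with 15 false calls. The changed genes were all above 5 CPM and changed by 2-fold in 1 group, and all genes had the same relative spread between libraries. Smaller changes, genes at lower levels and an outlying library were not simulated, so the recovery does not apply to them.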

Additional observations from a re-analysis of the deposited data

Results flagged for a closer look

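Losing Mlx had unequal effects with Myc present and absent for 15 of the 31 chemokine and cytokine genes tested in primary MEFs. Of all genes tested, 13.5% passed in either direction (limma, interaction of both losses on the log2 scale, adjusted p under 0.05). The interaction was positive for Ccl5 (2.88), Ccl6 (2.12), Ccl9 (1.81), Cxcl9 (1.62), Cxcl12 (1.29), Ccl12 (1.11), Cxcl16 (1.04), Cxcl5 (0.85), Cxcl14 (0.84), Il6 (0.80), Cx3cl1 (0.65) and Lif (0.57), and negative for Ccl7 (-1.28), Ccl2 (-0.96) and Il33 (-0.83). Of the 12 macrophage markers 10 had a positive interaction, as had 2 of the 5 chemokine receptors tested. Their part in these results was not tested. That of Il6 lost its call without WT library 2, MlxKO library 5, MycKO library 9 or DKO library 13 or 15 (0.61 to 0.78, limma adjusted p from 0.0618 to 0.0832). That of Lif lost it without WT library 1, MlxKO library 7 or DKO library 13 (0.49 to 0.55, limma adjusted p from 0.0534 to 0.0596).

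In immortalized MEFs the interaction was positive for Cxcl15 (5.64), Cxcl1 (1.86) and Ccl28 (1.44) and negative for Ccl5 (-4.81), Cxcl14 (-3.57), Cxcl10 (-3.42), Ccl2 (-2.49), Cxcl5 (-1.88) and Cx3cl1 (-0.60). Cxcl14 had fewer than 3 reads in each DKO library (0.114, 0.113 and 0.110 CPM), so its value is limited by depth. That of Cxcl5 lost its call without WT library 2 or 3, MlxKO library 5, MycKO library 9 or DKO library 13 (-1.80 to -1.47, limma adjusted p from 0.0505 to 0.0623). That of Cx3cl1 lost it without WT library 2 or 3, MlxKO library 5, 6 or 7, MycKO library 10 or 11 or DKO library 14 or 15 (-0.62 to -0.45, limma adjusted p from 0.0548 to 0.101). The count of 9 of 22 stood beside 47.4% of all genes past the same threshold, and without WT library 4 it was 16 of 22 beside 56.7%.

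Under the same knockout 5 of the 20 genes tested in both tables had values of opposite sign in primary and immortalized MEFs. All libraries of each group lay on the stated side of WT, and the difference was not tested. The share of all genes that did the same was not computed, so the count cannot be read as a trait of these genes. In MycKO the primary and immortalized log2 changes were -1.85 and 2.05 for Ccl5, 0.42 and -0.68 for Cx3cl1, 0.24 and -1.75 for Cxcl1 and -0.69 and 1.36 for Tnfsf11. In MlxKO they were -0.29 and 1.02 for Cx3cl1 and -0.50 and 1.68 for Cxcl14, and in DKO 1.52 and -0.73 for Cxcl14. The primary values of Cxcl1 in MycKO and Cx3cl1 in MlxKO and the immortalized value of Cxcl14 in DKO did not pass the threshold.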

How the results depend on the processing

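Of 52 calls against WT of the genes described singly, 39 were kept under every alternative in which the gene was tested. The other 13 were lost without 1 library or more, and no called value changed sign. Genes with a mean under 5 CPM, such as Ccl8 in primary MEFs, were not tested under the filter on that mean. With a mean of at least 5 CPM as filter, which tests fewer genes, the calls went from 24 to 12 in primary MycKO, 16 to 10 in DKO, 16 to 10 in DKO against MycKO, 20 to 10 in DKO against MlxKO, 11 to 7 in immortalized MycKO and 10 to 6 in immortalized MlxKO. Without a filter 6 in place of 12 were called in primary MlxKO (the cause was not tested). In immortalized DKO 3 calls became 5 with a pseudocount of 0.1, 5 with edgeR (2 higher, 3 lower) and 6 with DESeq2 (3 higher, 3 lower), and edgeR gave 3 higher and 10 lower in primary MlxKO against 4 and 8. Leaving out single libraries gave 5 to 14 calls in primary MlxKO (5 without WT library 2, 6 without WT library 1 or MlxKO library 7), 5 to 12 in immortalized MlxKO (5 without WT library 2, 6 without MlxKO library 6), 3 to 7 in immortalized DKO, 6 to 11 in immortalized DKO against MycKO and 7 to 16 for the immortalized interaction, the last 3 highest without WT library 4. Scaling by library totals moved the median of all genes by 0.16 in immortalized MlxKO, where 9 genes rose and 1 fell against 8 and 2. In primary MycKO it moved the median by -0.09, and 7 genes rose and 15 fell against 10 and 14. Genes near 3 reads a library are limited by depth. No paired analysis was possible because nothing links the numbers in the column names to the labels' replicate numbers.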
